A study of Mus musculus with 12 samples.

Results

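Retinoic acid differentiation of mouse embryonic stem (ES) cells was examined for 9 genes of the Hedgehog pathway, which were Shh, Ihh, Ptch1, Smo, Gli1, Gli2, Gli3, Gas1 and Cdon. Members were taken as every probe whose gene name in the scanner tables is one of these symbols, or whose accession belongs to the same gene, which gave 16 probes of 41174 and 9 genes of the 21152 that could be named. ES cells are pluripotent cells cultured from the early embryo. The samples were 3 of ES cells differentiated for 3 days in retinoic acid, a hormone-like product of vitamin A that binds nuclear receptors, and 3 of undifferentiated ES cells. Total RNA of each sample was amplified once, labelled with the dye Cy3 and hybridised to 2 technical arrays, 12 arrays in all. Strain, cell line, sex, culture medium, feeder layer and retinoic acid dose are not given in the labels used here, and neither is any genotype difference between the groups. The samples are called biological replicates, but nothing says that they came from separate cultures, so p-values measure only the spread between these samples. RNA of a whole culture cannot tell fewer cells of a type from less RNA per cell.

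Hedgehog proteins are secreted, lipid-modified signals that pattern the limb, the neural tube, the gut and other embryonic tissues. Without ligand the receptor Ptch1 holds the membrane protein Smo inactive, and Gli3 and Gli2 are cut into forms that repress target genes. Ligand bound to Ptch1 together with a co-receptor (Gas1, Cdon or Boc) releases Smo, which signals at the primary cilium and lets full-length Gli2 and Gli3 activate targets, among them Gli1 and Ptch1 themselves. Gas1 is a protein anchored to the outer cell surface by a lipid and was first known for its rise in cells that stop growing.

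The largest differences among the members were those of the co-receptors, Gli3 and Smo. The ligands among the members were too dim for the sending and receiving sides of the pathway to be compared. After retinoic acid the co-receptor Gas1 was 58.5-fold higher, the transcription factor Gli3 8.08-fold, the co-receptor Cdon 5.12-fold and Smo 4.45-fold, on the scale of intensity plus 50. Ptch1 and Gli2 were lower, at 0.553 and 0.692 of the undifferentiated value, and the call of Gli2 depended on the processing. The ligand Ihh and the factor Gli1 were near the bottom of the scale and were not called, and Shh was too dim to be tested. Thus 4 members rose and 2 fell of the 8 tested, in a comparison where 32.4% of all 15313 genes tested were called, 18.7% higher and 13.6% lower. The median difference of the 8 was 1.01 on the log2 scale, against 0.0036 over all genes tested. Groups did not overlap in 6 of the 8, with retinoic acid higher in 4, beside 46.6% of all genes tested and 25.7% with retinoic acid higher.

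The stretches around the annotated starts of members with large or opposite differences are shown here for reference, 250 bases before to 50 after the start, from RefSeq on GRCm38.p6. Capitals mark CCACCC or its reverse complement, the core of the sequence that Gli factors bind. The windows are Gas1, chr13:60177486-60177785 on the minus strand, Gli3, chr13:15463473-15463772 on the plus strand, Smo, chr6:29735247-29735546 on the plus strand, and Ptch1, chr13:63565686-63565985 on the minus strand.
Gas1: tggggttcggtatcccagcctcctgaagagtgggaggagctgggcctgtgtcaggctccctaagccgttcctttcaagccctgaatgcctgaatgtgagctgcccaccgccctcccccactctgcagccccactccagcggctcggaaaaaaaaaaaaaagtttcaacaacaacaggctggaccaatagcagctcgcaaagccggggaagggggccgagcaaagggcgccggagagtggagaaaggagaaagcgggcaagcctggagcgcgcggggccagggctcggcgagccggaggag
Gli3: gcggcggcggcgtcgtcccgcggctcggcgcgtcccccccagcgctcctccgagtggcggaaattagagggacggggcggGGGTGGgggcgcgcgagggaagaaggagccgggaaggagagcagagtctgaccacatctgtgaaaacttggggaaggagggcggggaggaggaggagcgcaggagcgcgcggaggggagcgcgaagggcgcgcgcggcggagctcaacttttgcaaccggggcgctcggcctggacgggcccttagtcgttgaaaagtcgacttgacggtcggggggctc
Smo: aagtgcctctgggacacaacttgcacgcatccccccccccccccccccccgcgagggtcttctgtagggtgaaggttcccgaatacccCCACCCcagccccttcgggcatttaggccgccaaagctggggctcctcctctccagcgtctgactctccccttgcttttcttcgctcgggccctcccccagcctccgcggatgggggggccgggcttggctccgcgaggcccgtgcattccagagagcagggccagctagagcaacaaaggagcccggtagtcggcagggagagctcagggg
Ptch1: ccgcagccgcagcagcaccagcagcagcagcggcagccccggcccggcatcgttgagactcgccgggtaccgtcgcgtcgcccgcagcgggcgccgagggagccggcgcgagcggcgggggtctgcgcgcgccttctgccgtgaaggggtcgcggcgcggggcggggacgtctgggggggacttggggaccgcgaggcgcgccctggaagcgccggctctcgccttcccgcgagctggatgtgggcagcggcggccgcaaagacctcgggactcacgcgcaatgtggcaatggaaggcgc
The Gli3 window holds the core once, on the other strand, with its first letter 170 bases before the start, and the Smo window holds it once, on the strand of the gene, 162 bases before the start. The Gas1 and Ptch1 windows hold none. Of the 9 members 7 had a window in the table, and the core was found in 4 of these (Gli2, Gli3, Ihh and Smo), against 31.5% of all 32851 windows, on either strand. The letters G and C made up 67.3%, 71.0%, 72.7% and 67.7% of these 4 windows. The median over all windows was 52.7%, and the comparison makes no allowance for this. The longer Gli consensus GACCACCCA, which contains the core, was in 0 of the 7 and in 0.253% of all windows. The nuclear receptor motif AGGTCA was in 0 of the 7 and in 16.3% of all windows. Shh and Gli1 are named only. The window of Cdon lies at a start inside the annotated gene. A match is a description of these letters, and no match says only that the letters are absent from the window.

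Values are log2 of the net spot intensity after quantile normalization between the 12 arrays and addition of 50, averaged over the 2 technical arrays of each sample. A probe counted as above background on an array where it exceeded the 95th percentile of 27 negative control spots. A gene was represented by its brightest probe, and it was tested if that probe was above background on 4 or more of a group's 6 arrays. Genes were called at an adjusted p under 0.05 in limma (Benjamini-Hochberg over every tested gene). The arrays had median scanner intensities of 37.4 to 96.6 and background limits of 8.50 to 51.6, and 53.8% to 85.0% of their probes were above background. The technical arrays of a sample correlated at 0.990 to 0.998 (Pearson's r of log2 values across probes). The header of undifferentiated replicate 2, technical array 2, names the other array of that sample, but the values differ, with 0.158% of probes equal and a rank correlation of 0.958. Of 11 ES cell markers 10 fell and 0 rose, and each of the 11 exceeded background on all 6 undifferentiated arrays, with summed normalized intensities of 36208 to 47639 in retinoic acid samples and 129561 to 185404 in undifferentiated samples. Of 9 retinoic acid response genes 6 rose and 0 fell. Rarb (-0.27), Stra6 (-0.27) and Hoxb1 (-0.48) were not called. Their undifferentiated means were 12.40, 11.95 and 9.91, so these 3 were already well above background without retinoic acid. Nanog (-3.67), Sox2 (-3.05), Zfp42 (-4.10) and Pou5f1 (-4.72), core factors of pluripotency, were lower after retinoic acid. Cyp26a1, the enzyme that breaks down retinoic acid, rose by 8.04 (limma, adjusted p = 1.2e-06).

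The ligands were faint in both groups. Shh, the main ligand of the neural tube and the limb, has 1 probe, which was above background on 0 of 6 retinoic acid arrays and on 3 of 6 undifferentiated arrays. Its values in replicates 1, 2 and 3 were 5.98, 6.05 and 6.05 after retinoic acid, and 6.20, 5.91 and 6.32 in undifferentiated cells. The retinoic acid values lie inside the range of the undifferentiated ones, all are close to the value that no signal would give, and no fold is given.

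Ihh, the ligand of cartilage that in the mouse embryo is also made by visceral endoderm, was above background on all 12 arrays with its brighter probe. That probe read 6.77, 6.37 and 6.98 after retinoic acid and 7.21, 6.49 and 7.49 in undifferentiated cells. The groups overlapped, and replicate 2 was the lowest sample in each. The difference was -0.36 (95% confidence interval -1.02 to 0.30, adjusted p = 0.384 in limma). The dimmer probe gave 6.58, 6.36 and 6.58 after retinoic acid and 5.92, 6.38 and 6.04 in undifferentiated cells, and was above background on 6 and on 2 of the 6 arrays of these groups. Its difference had the other sign, 0.39 (limma over all probes, adjusted p = 0.149). Leaving out undifferentiated replicate 2 gave -0.65 (adjusted p = 0.0623) on the brighter probe, and leaving out undifferentiated replicate 3 gave -0.15 (adjusted p = 0.735). The mean of the probes differed by 0.02, so the files give no direction for Ihh.

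Ptch1, the receptor that binds the ligands and restrains Smo, was lower after retinoic acid. Its brighter probe read 7.81, 7.66 and 7.75 after retinoic acid and 8.89, 8.35 and 8.54 in undifferentiated cells. Every retinoic acid sample was below every undifferentiated sample, and the spread was smaller after retinoic acid (SD 0.07 against 0.27, n = 3 each). The difference was -0.85 ± 0.18 (SE; limma, adjusted p = 0.0082). The other probe, given in the table with a RefSeq accession of Ptch1, was above background on 0 of 6 retinoic acid arrays and 2 of 6 undifferentiated arrays and averaged 6.02 and 6.06 in these groups. The mean of the probes differed by -0.45 (adjusted p = 0.0473).

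Smo, the membrane protein that carries the signal inward, moved the other way from its inhibitor. Its brightest probe read 12.73, 12.74 and 12.50 after retinoic acid and 10.22, 10.75 and 10.54 in undifferentiated cells. The groups lay well apart, although the technical arrays of a sample differed by up to 0.63 for this probe, more than for any other member. The difference was 2.16 ± 0.18 (SE; limma, adjusted p = 0.00012), with 2.36 from technical array 1 alone and 1.95 from technical array 2 alone. A second probe was near background, at 6.43 ± 0.30 after retinoic acid and 5.93 ± 0.06 in undifferentiated cells (SD, n = 3 each), and was not called (0.49; limma, adjusted p = 0.093). The remaining probe was above background on 2 of 6 retinoic acid and 1 of 6 undifferentiated arrays and averaged 6.06 and 6.07. The mean of the 3 probes differed by 0.88 and was called (adjusted p = 0.00198).

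**Figure D1:**
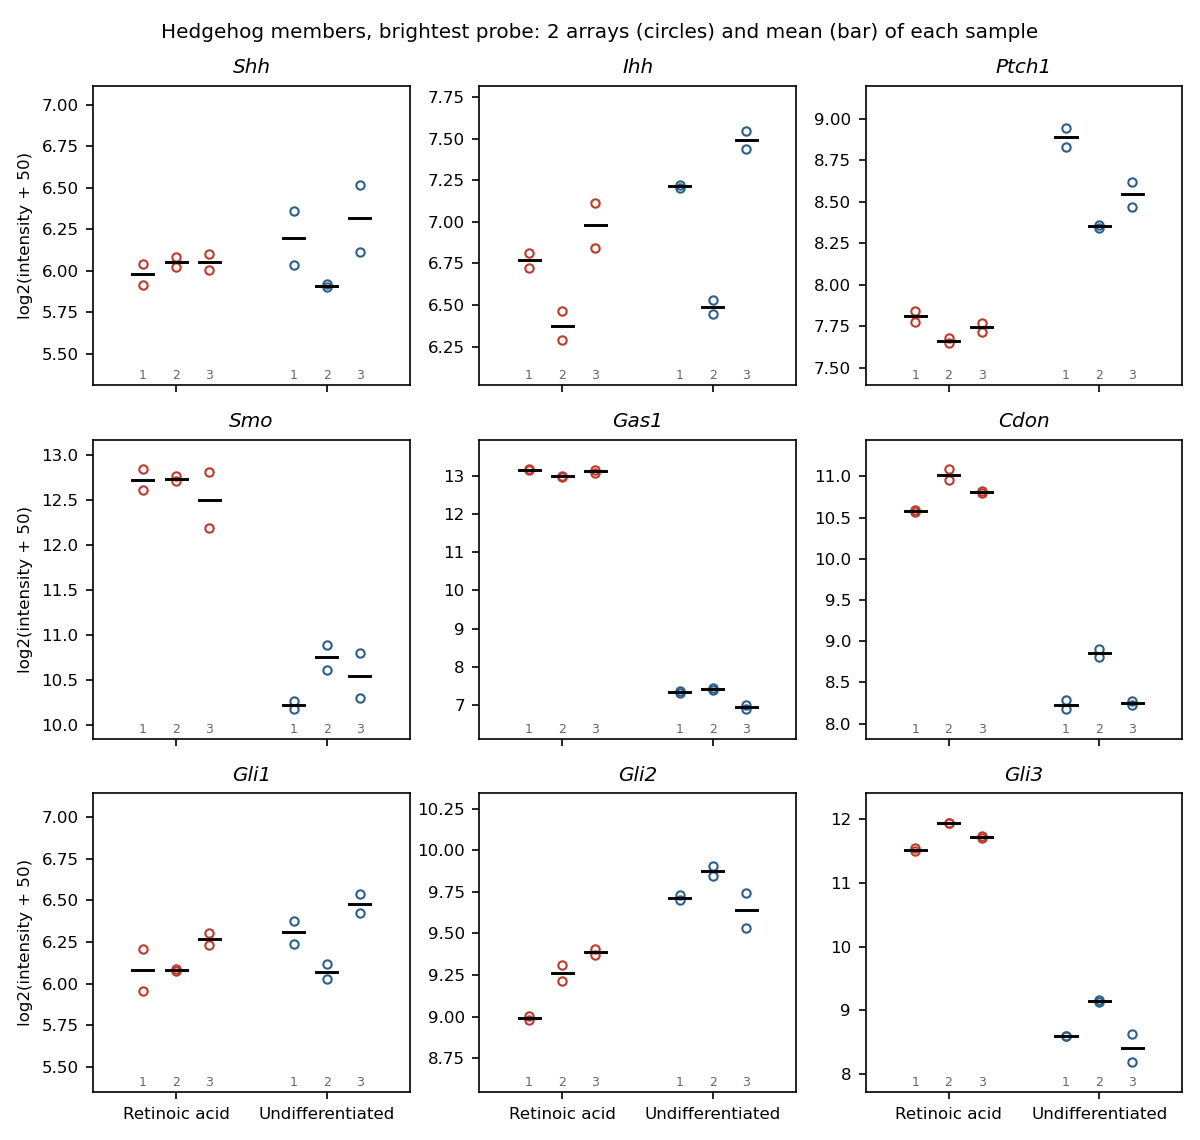
log2(intensity + 50) of the brightest probe of each of the 9 members, with retinoic acid samples on the left and undifferentiated samples on the right of each panel; circles are the 2 technical arrays of a sample and the bar is their mean, and each panel has its own axis range. Gas1, Gli3, Cdon and Smo lie higher in all 3 retinoic acid samples, Ptch1 and Gli2 lower, and Shh, Ihh and Gli1 overlap between the groups.

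Both co-receptors rose. Gas1 has 1 probe, and it read 13.17, 12.99 and 13.13 after retinoic acid and 7.33, 7.41 and 6.93 in undifferentiated cells. All 3 retinoic acid samples were high on the scale and all 3 undifferentiated samples low, yet the probe was above background on all 12 arrays. As normalized intensity this is 8080.05 to 9202 on the retinoic acid arrays and 68.5 to 122 on the undifferentiated arrays. The difference was 5.87 ± 0.18 (SE; 95% confidence interval 5.46 to 6.28; limma, adjusted p = 1.8e-06), and 8 of the 15313 genes tested rose by more. With 1 in place of 50 added before log2 it was 6.45, since the added value shrinks the difference of a gene that is dim in either group.

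Cdon, a cell surface protein of the immunoglobulin superfamily that also binds the ligands, read 10.58, 11.02 and 10.81 after retinoic acid and 8.23, 8.86 and 8.25 in undifferentiated cells on its brighter probe. The lowest retinoic acid sample was well above the highest undifferentiated sample. The difference was 2.36 ± 0.22 (SE; limma, adjusted p = 0.00019). Its dimmer probe averaged 6.56 ± 0.03 and 6.13 ± 0.12 (SD, n = 3 each) after retinoic acid and in undifferentiated cells, did not overlap between the groups and was not called (0.42; limma over all probes, adjusted p = 0.068). The mean of the probes differed by 1.39 and was called (adjusted p = 0.00081).

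Of the 3 Gli factors 1 rose, 1 fell and 1 was not called. Gli3, which acts mostly as the repressor, read 11.52, 11.94 and 11.73 after retinoic acid and 8.60, 9.15 and 8.40 in undifferentiated cells. The groups did not overlap, and replicate 2 was the highest sample in each. The difference was 3.01 ± 0.23 (SE; 95% confidence interval 2.49 to 3.54; limma, adjusted p = 6.6e-05), and 128 of the genes tested rose by more. A second probe with the same accession was above background on 0 of 12 arrays, at 5.88 ± 0.08 after retinoic acid and 5.90 ± 0.22 in undifferentiated cells (SD, n = 3 each). The rise of Gli3 thus rests on 1 probe, and the mean of the pair differed by 1.50.

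Gli2, which acts mostly as the activator, read 8.99, 9.26 and 9.39 after retinoic acid and 9.72, 9.88 and 9.64 in undifferentiated cells. The groups did not overlap, but the gap between the nearest samples was smaller than the range of the retinoic acid samples. The difference was -0.53 ± 0.17 (SE; 95% confidence interval -0.92 to -0.14; limma, adjusted p = 0.0433). In 13 of 21 alternatives Gli2 was no longer called, and these include each of the 6 fits that left out 1 sample (adjusted p from 0.0505 to 0.164), while the sign was the same in each. A second, dim probe was above background on 0 of 6 retinoic acid and 3 of 6 undifferentiated arrays, so it was not tested. It averaged 6.01 and 6.48 in these groups. No fold is given, because part of the undifferentiated values were also within background.

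Gli1, an activator whose transcript is a common readout of Hedgehog signalling, was close to background. Its 1 probe read 6.08, 6.08 and 6.27 after retinoic acid and 6.31, 6.07 and 6.48 in undifferentiated cells. The groups overlapped, and 2 of 6 retinoic acid arrays and 5 of 6 undifferentiated arrays were above background. The difference was -0.14 (95% confidence interval -0.52 to 0.24; limma, adjusted p = 0.564). It was -0.25 without undifferentiated replicate 2 and -0.05 without undifferentiated replicate 3, not called in either.

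**Figure D2:**
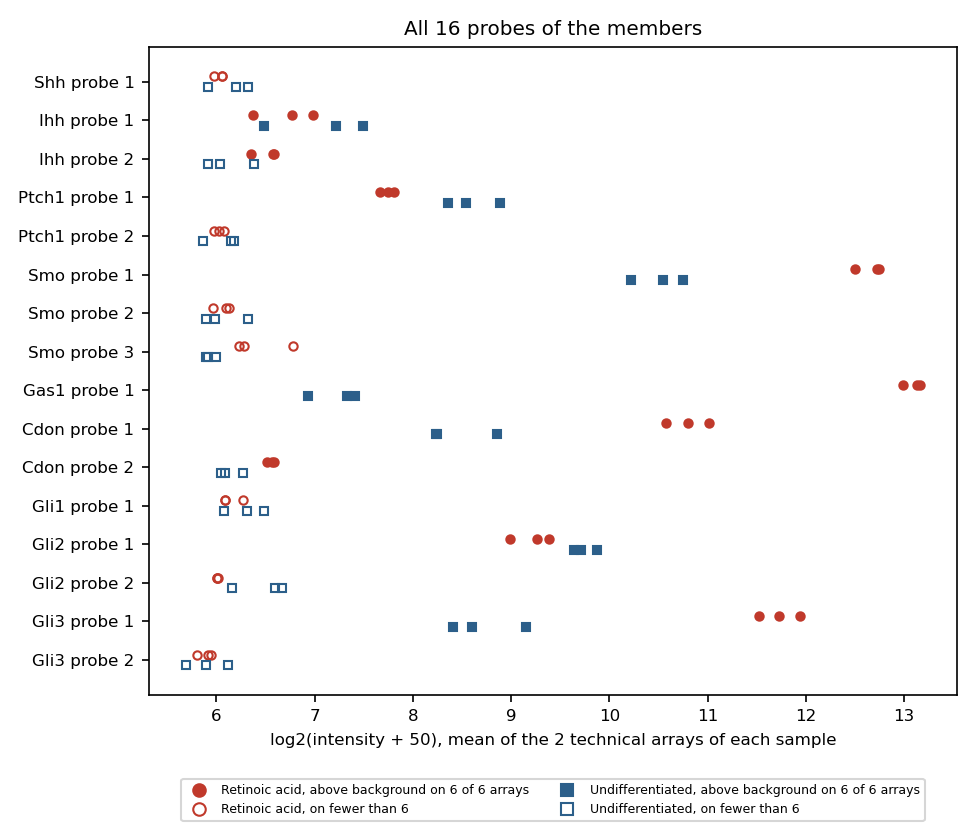
log2(intensity + 50) of all 16 member probes, with the 3 retinoic acid samples as circles above the 3 undifferentiated samples as squares; filled symbols mark probes above background on 6 of 6 arrays of the group and open symbols those on fewer. In the 6 members with more than 1 probe, the probes other than the brightest lie between 5.69 and 6.78.

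**Figure D3:**
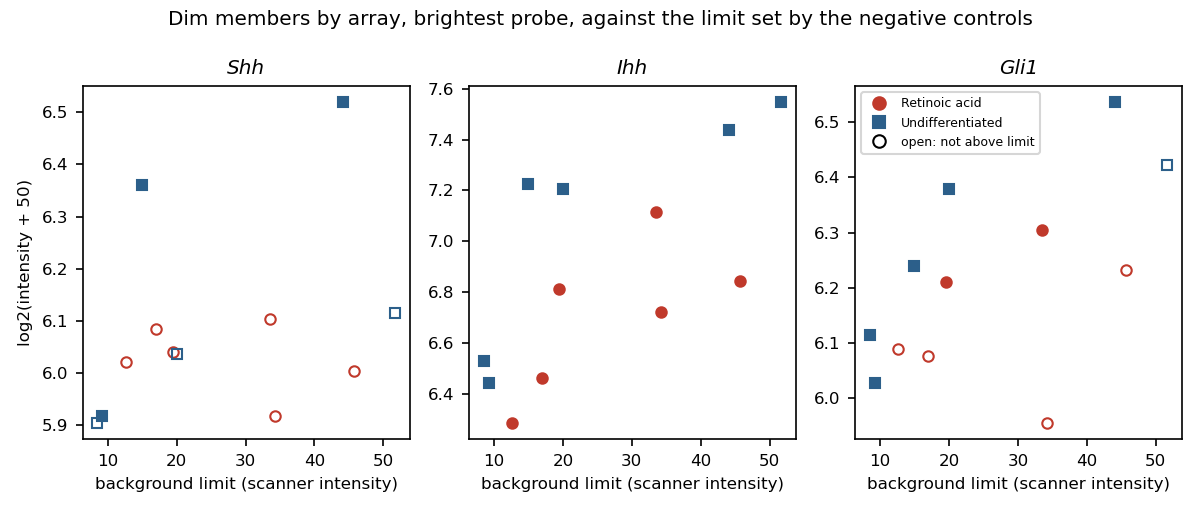
log2(intensity + 50) of Shh, Ihh and Gli1 on each of the 12 arrays, plotted against the array's background limit in scanner intensity; filled symbols are above the limit. The limits run from 8.50 to 51.6, and for each gene the undifferentiated arrays with the lowest limits, those of replicate 2, also have the lowest undifferentiated values.

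Of the member probes, 9 were above background on fewer than 6 arrays of a group, and the brighter Ihh probe is not among them. In 6 of the 9 the order of undifferentiated samples was replicate 3, then 1, then 2. That order was seen in 17.7% of the 21566 such probes on the array. It was also seen in 20.1% of the 19608 probes above background on all 12 arrays. Undifferentiated replicate 2 had the 2 lowest limits (8.50 and 9.24) and replicate 3 had limits of 44.1 and 51.6. This order was noticed after the values were seen, and its part in the results for Shh, Ihh and Gli1 was not tested.

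Other genes of the pathway were read from a list of 59, of which 58 were named on the array and 54 were tested. Of these, 18 rose, 4 fell and 32 were not called. That is 40.7% called, with a median difference of 0.21, beside the 32.4% and 0.0036 of all genes tested. Some of those that rose were tested only because they were above background after retinoic acid. Of the 41 above background on all 12 arrays, 10 rose and 3 fell. Over all genes with that filter, 2065 of 11970 rose and 1736 fell.

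Among genes for making and releasing ligands, 3 of 5 tested rose, which is 60% beside 18.7% of all genes tested. Scube1 and Scube3 encode secreted proteins that carry the lipid-modified ligand away from the cell, and Disp1 encodes the transporter that lets it go. Scube1 read 7.16, 7.57 and 7.22 after retinoic acid and 6.21, 6.18 and 6.06 in undifferentiated cells, a difference of 1.17 ± 0.17 (SE; limma, adjusted p = 0.0014). Scube3 differed by 0.92 and Disp1 by 0.78 (limma, adjusted p = 0.0038 and 0.0183). In undifferentiated cells Scube1 was above background on 3 of 6 arrays and Scube3 on 2 of 6. The 60% thus depends on the filter, since both genes passed it only through the retinoic acid group. With 1 added before log2 they differed by 2.35 and 2.25, and with the mean of its probes Scube1 differed by 0.47, each still called. Disp1 was no longer called in 5 alternatives, 3 of which left out 1 sample: undifferentiated replicate 1 (adjusted p = 0.0671), retinoic acid replicate 2 (adjusted p = 0.053) or retinoic acid replicate 3 (adjusted p = 0.0739). Its dimmer probe differed by -0.15. Hhat, which attaches the palmitate to the ligand, and Scube2 were not called (-0.19 and 0.02). Dhh, the other ligand of the family, was above background on 3 of 6 arrays of each group and was not tested, and neither was Disp2.

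Of 5 further receptors, co-receptors and ligand traps tested, 3 rose, which is 60% beside 18.7% of all genes tested. Gpc3, a cell surface proteoglycan that competes with Ptch1 for the ligand, read 13.79, 13.75 and 13.89 after retinoic acid and 10.11, 10.12 and 10.50 in undifferentiated cells. These groups lay far apart, and the difference was 3.56 ± 0.16 (SE; limma, adjusted p = 1.1e-05). Boc, the close relative of Cdon, read 7.81, 8.20 and 7.98 after retinoic acid and 6.68, 7.23 and 6.51 in undifferentiated cells. The groups of Boc did not overlap, and the difference was 1.19 ± 0.22 (SE; limma, adjusted p = 0.0051). Each of the co-receptors Gas1, Cdon and Boc was therefore called higher, though the other probes of Boc were at background, above it on at most 1 of 6 arrays of a group, and the mean of its probes differed by 0.51. Lrp2, a large endocytic receptor that binds Shh, differed by 0.85 (limma, adjusted p = 0.0288). The call of Lrp2 was lost with either other scaling (0.63 and 0.66), without retinoic acid replicate 2 or 3, and without undifferentiated replicate 1 or 3 (adjusted p from 0.0757 to 0.0984 with a sample left out). Hhip, a trap for the ligand that is itself a target, was not called (0.22; limma, adjusted p = 0.366).

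**Figure D4:**
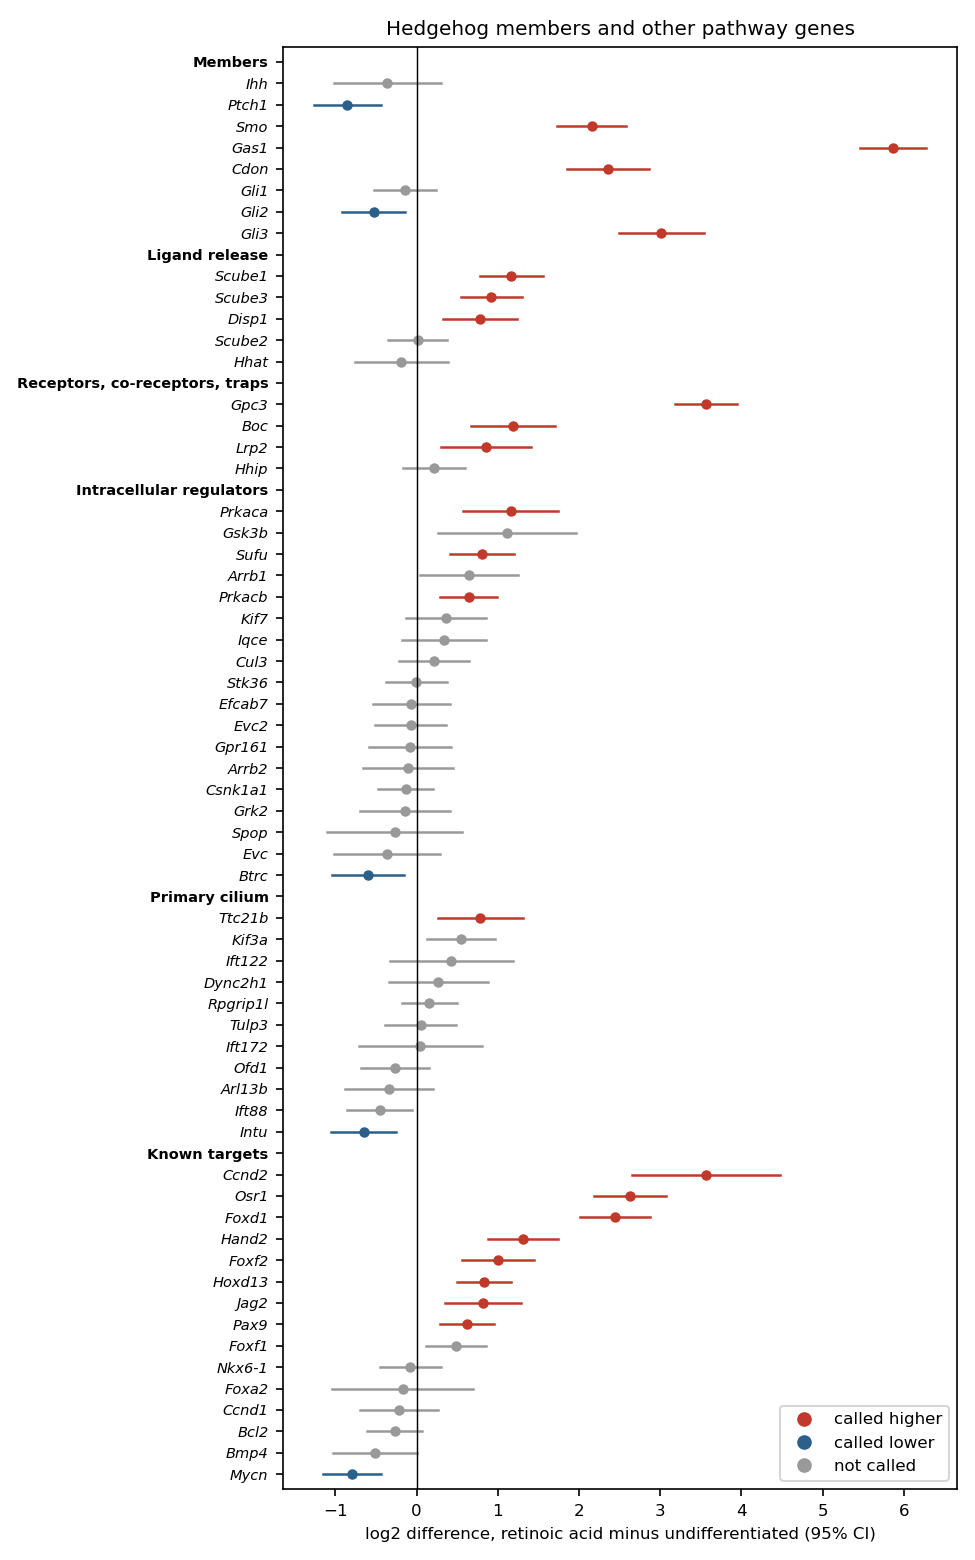
log2 difference, retinoic acid minus undifferentiated, with its 95% confidence interval, for the 8 tested members and the other tested pathway genes reported here, grouped by role; red is called higher, blue called lower and grey not called. Gas1 (5.87), Ccnd2 (3.57) and Gpc3 (3.56) lie farthest to the right, and Ptch1 (-0.85) and Mycn (-0.79) farthest to the left.

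Of 18 intracellular regulators tested, 3 rose and 1 fell, which is 22.2% called beside 32.4% of all genes tested, with a median of -0.04. Prkaca and Prkacb, catalytic subunits of the protein kinase A that marks Gli proteins for cutting, rose by 1.16 and 0.65 (limma, adjusted p = 0.0101 and 0.0139). Prkacb was not called without retinoic acid replicate 1 or 3 (adjusted p = 0.0506 and 0.0757), and its second probe differed by 0.08. Sufu, the protein that holds Gli factors in the cytoplasm, read 10.04, 10.10 and 10.02 after retinoic acid and 9.29, 9.47 and 8.98 in undifferentiated cells. The groups did not overlap, and the difference was 0.81 ± 0.17 (SE; limma, adjusted p = 0.0087). Its dimmer probes differed by -0.24 and 0.17, and the mean of the probes by 0.24, which was not called (adjusted p = 0.398). Kif7, the ciliary kinesin that acts with Sufu, was not called (0.36; limma, adjusted p = 0.245), and its difference was 0.15 without undifferentiated replicate 3. Btrc, the ubiquitin ligase subunit that sends phosphorylated Gli proteins for cutting, was lower, with a difference of -0.60 (limma, adjusted p = 0.0461), a call lost in 14 of 21 alternatives, including the fits without any 1 of the retinoic acid replicates or without undifferentiated replicate 1 or 3 (adjusted p from 0.0698 to 0.163).

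Genes of the primary cilium showed 1 rise and 1 fall among 11 tested, which is 18.2% called beside the same 32.4%, with a median of 0.05. Ttc21b, a subunit of the transport complex that moves cargo back from the ciliary tip, differed by 0.79 (limma, adjusted p = 0.0323), and 7 alternatives did not call it. These included the fits without undifferentiated replicate 1 or 3 and without any 1 of the retinoic acid replicates (adjusted p from 0.0617 to 0.118). Intu, which is needed to build cilia, was lower, with a difference of -0.65 (limma, adjusted p = 0.0229) and of -0.65 on a second probe, while the remaining probe differed by -0.01. Intu was not called without retinoic acid replicate 1 or 3, nor without undifferentiated replicate 3 (adjusted p from 0.0506 to 0.106).

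Genes described elsewhere as targets or response genes of the pathway rose more often than they fell. Of 15 tested, 8 rose and 1 fell, which is 60% called and 53.3% higher, with a median of 0.62. Of all genes tested 32.4% were called and 18.7% were higher. Foxf2, Foxd1, Osr1, Hand2 and Pax9 were above background on 0, 1, 2, 2 and 2 of 6 undifferentiated arrays. They passed the filter only through the retinoic acid group. The share called higher thus depends in part on the filter and is no support for a rise of the targets as a set. The largest differences were those of Ccnd2 (cyclin D2), Osr1 and Foxd1. Ccnd2 read 11.68, 11.58 and 11.70 after retinoic acid and 8.33, 7.10 and 8.83 in undifferentiated cells. Its undifferentiated samples spread widely (SD 0.89), yet all were below the retinoic acid samples, by 3.57 ± 0.39 on average (SE; limma, adjusted p = 0.00041), and by 3.24 and 2.66 on its other probes. Osr1, a transcription factor of intermediate mesoderm, rose by 2.63 (0.79 on a second probe), and Foxd1, a forkhead factor of kidney stroma and other mesenchyme, by 2.44 (2.16 on a second probe). Osr1 and Foxd1 were above background on 2 and 1 of the 6 undifferentiated arrays, so these sizes are approximate. Hand2 (1.31), Hoxd13 (0.83), Jag2 (0.82) and Pax9 (0.62) were also called higher. With 1 added before log2, dim genes differed by more, such as Foxd1 by 4.23, Osr1 by 4.20, Hand2 by 3.25, Pax9 by 1.93 and Hoxd13 by 1.61. With the mean of its probes Osr1 differed by 1.71, and Hoxd13 by 0.35, which was not called (adjusted p = 0.163). Foxf2, a forkhead factor of gut mesenchyme, was above background on 6 of 6 retinoic acid and 0 of 6 undifferentiated arrays and was at least 2.93-fold higher (limma, adjusted p = 0.0054). The calls of Jag2 and Pax9 were lost without retinoic acid replicate 1 or 3. Mycn, a regulator of proliferation that the pathway induces in the brain, was lower, with a difference of -0.79 ± 0.16 (SE; limma, adjusted p = 0.0065). Nkx2-2 and Olig2, targets in the ventral neural tube, were at or near background and were not tested. Nkx6-1 and Foxa2, in the same list, were tested and differed by -0.08 and -0.17. Neither was called (limma, adjusted p = 0.767 and 0.774).

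Of the 22 called genes in this list, 13 have another probe that was tested. In 11 of these every other tested probe had the same sign, and in 5 some other probe was called in that direction. The same counts were not made over all called genes, so these do not show whether probes of this list agree better or worse than others.

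Markers of other cell types differed between the lists. Called higher were 66.7% of the fibroblast and mesenchyme markers tested and 45.5% of the primitive and visceral endoderm markers. The shares were 50% for mesoderm and 16.7% for neural progenitors and floor plate, beside 18.7% of all genes tested. For mesoderm the share depends on the filter. Meox1, Foxc1 and Foxc2 rose, but were above background on 3, 2 and 2 of 6 undifferentiated arrays. They were tested only through the retinoic acid group. T, Tbx6 and Hand1, above background on 6, 4 and 6 undifferentiated arrays, were not called. Of 9 fibroblast and mesenchyme markers tested, 6 rose and Thy1 fell, and the summed normalized intensity of the 11 listed genes was 3878 to 4553 in retinoic acid samples and 1206 to 1475 in undifferentiated samples. Col1a2, a fibrillar collagen, rose by 3.39 (limma, adjusted p = 2.2e-05), while Postn was above background on 0 of 6 retinoic acid arrays and Lum on 3. Of 11 tested markers of primitive and visceral endoderm, where Ihh is known to be made, 5 rose and 1 fell, with sums of 9558 to 13317 and 2202 to 3541 in retinoic acid and undifferentiated samples. Gata6 (4.11) and Sox17 (3.78) rose, and Ttr was above background on 0 of 12 arrays. The median difference of the 11 tested was -0.028, so the list did not rise as a whole. Lama1 fell (-0.52). Gata4 (-0.35), Foxa2 (-0.17), Afp (-0.41), Hnf4a (-0.03) and Pdgfra (-0.25) were not called. Of 6 mesoderm markers tested 3 rose, with sums of 1855 to 2065 and 252 to 316 in these groups, and T (Brachyury) was not called (-0.38; limma, adjusted p = 0.107). Of 6 markers of neural progenitors and floor plate tested 1 rose (Pax6, 1.71), with sums of 2971 to 3304 and 2155 to 2987. The part of these cell types in the differences of Gas1, Gli3, Cdon and Smo was not tested.

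The genes most like each called member in the size and shape of their 6 sample values, centred on their mean, were found by the smallest root mean square difference in log2. For Gas1 these were Meis2 (0.153), Tshz1 (0.181) and Dhrs3 (0.192). For Gli3 they were Pcbd1 (0.056), Msx1 (0.085) and Igtp (0.124), and for Cdon Gng12 (0.081), Olfm1 (0.096) and Fam149a (0.101). Smo lay nearest to Fstl1 (0.051), Lats2 (0.083) and Fads3 (0.104). Ptch1 lay nearest to Rasip1 (0.063), Acsm4 (0.074) and Ints6 (0.082), and Gli2 to Pygm (0.042), Klf1 (0.053) and Atp6v1h (0.073). With 6 samples in 2 groups, only a gene with a group difference close to the member's can lie near it.

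**Figure D5:**
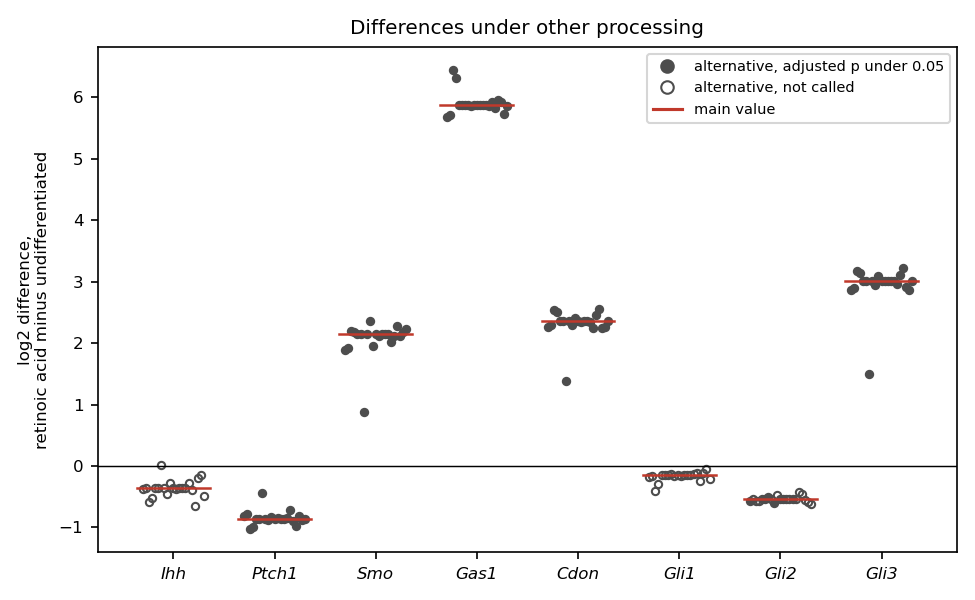
log2 difference, retinoic acid minus undifferentiated, of the 8 tested members under every alternative that gave a value; filled circles are called at an adjusted p under 0.05, open circles are not, and the red line is the reported value. Gas1, Gli3, Cdon, Smo and Ptch1 are called throughout, with the mean of a gene's probes as the smallest difference for the last 4 (1.50, 1.39, 0.88 and -0.45), and Gli2 is called in 8 of 21.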

How the data were processed

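Each deposited scanner table holds net mean intensity per spot on a linear scale, per the file headers, so the authors' software had already removed local background, by a method not given in the sources used here. The authors also deposited processed intensity for 41173 probes. R 2.15.0 and limma were used, per the submitters' processing notes. These columns kept the probe order of the scanner tables (rank correlation 1), have medians of 56.9 and are linear and uncentred, and they served as an alternative. No genome build is named for the array.

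The 12 arrays were quantile-normalized over 41174 probes, and log2 was taken after addition of 50, which understates fold changes of dim genes. Accessions in the tables, matched without versions to RefSeq (GRCm38.p6), named 27479 probes. A current symbol named 5478, an outdated symbol 671, the unchanged name in the file 1251 and a description 1 (Nanog), while 6294 were unnamed. The 27 negative control spots set the background limit. Technical arrays were averaged and groups compared with limma 3.58.1 in R 4.3.3 (two-sided, moderated by eBayes), without covariates, over 15313 genes. Other probes come from the same fit over all probes. The 3 samples and 2 arrays a sample limit the precision. A lower bound on a fold compares the mean of the brighter group with that of the dimmer group after each dimmer array's value was raised, where lower, to the faintest signal above its limit. The bound uses log2 of normalized intensity without the added 50. It is given only where the brighter group was above background on all its arrays. Figures used Python 3.11.15 and matplotlib 3.10.9. The fit was tested on simulated data.

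Named genes were the members, the called genes of the pathway list, its ligand, receptor and Sufu/Kif7 genes that were not called, defining markers and the 3 genes most like each called member. Other markers are named where they limit a result. A listed pathway gene that this rule would name is counted in the totals but is not reported here. Members, lists and tests were chosen with earlier results of these data known. Replicate numbers are shared by the groups, but the deviations of same-numbered samples from their group means correlated at -0.06, 0.22 and 0.07, so they were not treated as pairs. Replicate 3 had the highest median scanner intensities in both groups, 67.0 and 67.3 on undifferentiated and 96.6 and 93.5 on retinoic acid arrays. An effect shared by replicate number was not tested beyond the replicate block among the alternatives. Alternatives covered scaling, the added value, the filter, the choice of probe, technical arrays, the doubtful header, a replicate block, the variance estimate, the authors' values, a threshold of 0.01 and each sample left out.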

Additional observations from a re-analysis of the deposited data

How the results depend on the processing

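In 21 alternatives each, Gas1 (5.68 to 6.45), Gli3 (1.50 to 3.23), Cdon (1.39 to 2.56), Smo (0.88 to 2.36) and Ptch1 (-1.03 to -0.45) were called in the reported direction, and Gli1 (20 alternatives, -0.40 to -0.05) was not called in any. Shh was fitted only with no filter (-0.11; limma, adjusted p = 0.649). Ihh was not called in any of 21, ran from -0.65 to -0.15 with a sample left out, and changed sign with the mean of its probes (0.017). Gli2 lost its call with median scaling (-0.54), 1 or 10 added before log2 (-0.57 and -0.56), each probe by itself (-0.53), technical array 2 alone (-0.46), trend and robust variance (-0.53) and each sample left out (-0.62 to -0.42). Members called lower then numbered 1, also at an adjusted p under 0.01, and members called higher were 4 in all 22 alternatives. With the replicate block, in which shared replicate numbers stand for pairs, Gli2 differed by -0.53 (adjusted p = 0.0592), members called lower numbered 1, and the 4 higher members and Ptch1 kept their calls. Other pathway genes called higher numbered 10 with the filter on all 12 arrays, 11 at an adjusted p under 0.01 and 12 to 21 with a sample left out. Those called lower numbered 1 at an adjusted p under 0.01 and 1 to 4 with a sample left out (1 without retinoic acid replicate 1, 2 without undifferentiated replicate 3 or retinoic acid replicate 3). Of all genes, 1786 were higher and 1116 lower at an adjusted p under 0.01. With a sample left out 2008 to 3146 were higher and 1228 to 2106 lower (1326 without retinoic acid replicate 1, 1228 without retinoic acid replicate 3). Scaling changed the split of calls, with 2871 higher and 2083 lower as reported, 2436 and 2632 when scaled to the 75th percentile, and 2369 and 2241 when scaled to the median, and moved the median of all genes tested to -0.087 and -0.061. With a sample left out Hhat ran from -0.41 to -0.01, Hhip from 0.12 to 0.32 and Kif7 from 0.15 to 0.50, not called in any. Hhat changed sign with the mean of its probes (0.16). Scube2 changed sign with 75th percentile scaling (-0.0062), technical array 2 alone (-0.079), and without retinoic acid replicate 3 or undifferentiated replicate 1 or 2 (-0.036 to 0.104 over the 6 samples left out). Calls of other named genes lost with the mean of probes were those of Disp1, Sufu, Prkacb, Ttc21b and Hoxd13. The cause was not tested, except that fewer genes are tested under a stricter filter and fewer samples enter a fit with a sample left out. Signal near background limits Shh, Ihh, Gli1 and the dim probes.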
